A study of Mus musculus with 10 samples.

Results

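The 7 genes described here are snoRNA host genes, long RNA genes whose introns carry the small nucleolar RNAs (snoRNAs): Gas5, Snhg1, Snhg3, Snhg5, Snhg6, Snhg8 and Snhg12. They were taken by symbol from a table of raw read counts with 24421 genes, and all 7 were found there. The table held RNA-seq of R2 cells, erythroid progenitors sorted from the bone marrow of transplanted mice as CD71+ and Ter119+, with 1 library per mouse and about 100000 sorted cells per library. CD71 is the transferrin receptor and Ter119 an antigen of erythroid cells. Lethally irradiated BoyJ recipients had been given 1000000 marrow cells, and the cells were sorted at week 8 after the transplant. All donor cells, controls included, carried RosaCreERT2, a tamoxifen-inducible Cre expressed from a ubiquitous locus, and every recipient was treated with tamoxifen (1 mg daily, 5 days a round, 2 rounds). In the Ddx41+/- groups the Cre excised a single floxed Ddx41 allele, and the Trp53+/- groups carried a germline knockout allele of Trp53, the gene of p53. The 4 genotypes were Ddx41+/+ with Trp53+/+ (n = 3, mice 10, 11 and 12), Ddx41+/- with Trp53+/+ (n = 2, mice 32 and 34), Ddx41+/+ with Trp53+/- (n = 3, mice 22, 23 and 24) and Ddx41+/- with Trp53+/- (n = 2, mice 46 and 47). The libraries held between 7866648 counts (mouse 34) and 20283930 counts (mouse 11). The next smallest were those of mouse 22, with 10313928, and mouse 12, with 14590345.

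A snoRNA host gene is transcribed and spliced like a messenger RNA, and the snoRNA is trimmed out of the released intron. Box C/D snoRNAs guide 2′-O-methylation of ribosomal RNA and other RNAs, and box H/ACA snoRNAs guide pseudouridylation. The spliced exons of the long RNA hosts code for little or no protein. Several of them, Gas5 among the best known, begin with a run of pyrimidines that couples them to the translation machinery, and are removed by nonsense-mediated decay while they are translated, so that the level of the spliced RNA follows growth state and splicing as well as transcription. DDX41 is a DEAD-box RNA helicase that associates with the spliceosome and has been linked to the processing of snoRNAs from introns, and p53 is a transcription factor of the stress response. Erythroid progenitors build many ribosomes before they fill with hemoglobin. The comparisons below ask whether the counts of the host genes differed between Ddx41 genotypes, and whether the Trp53 genotype changed that difference. Spliced transcripts were not counted apart from those that keep introns.

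The hosts carried 9 snoRNA loci in Gas5, 8 in Snhg1, 4 in Snhg12, 2 each in Snhg3 and Snhg5, and 1 each in Snhg6 and Snhg8 (GENCODE M21 annotation of GRCm38, the build called mm10 in the labels, as for every position below). A snoRNA of each host is shown so that the short product can be told from the long RNA that was counted. Capitals mark the letters TGATGA (box C) nearest the 5′ end and the letters CTGA (box D) nearest the 3′ end in box C/D snoRNAs, and the ACA close to the 3′ end in box H/ACA snoRNAs, where a search for those letters found them. Each is written 5′ to 3′ on its own strand.
Snord47 of Gas5, chr1:161038082-161038158, plus strand: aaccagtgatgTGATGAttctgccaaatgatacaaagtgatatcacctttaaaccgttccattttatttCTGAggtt
Snord22 of Snhg1, chr19:8725866-8725991, plus strand: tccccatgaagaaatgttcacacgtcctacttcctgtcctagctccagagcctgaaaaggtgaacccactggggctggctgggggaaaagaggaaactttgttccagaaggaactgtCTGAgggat
Snora73b of Snhg3, chr4:132352322-132352526, minus strand: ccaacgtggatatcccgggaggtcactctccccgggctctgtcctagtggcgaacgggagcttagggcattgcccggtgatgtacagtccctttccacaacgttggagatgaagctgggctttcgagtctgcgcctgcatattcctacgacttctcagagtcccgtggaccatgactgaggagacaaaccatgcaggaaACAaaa
Snord50a of Snhg5, chr9:88521529-88521600, minus strand: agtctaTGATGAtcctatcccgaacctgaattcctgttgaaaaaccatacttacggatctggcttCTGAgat
Snord87 of Snhg6, chr1:9942463-9942549, minus strand: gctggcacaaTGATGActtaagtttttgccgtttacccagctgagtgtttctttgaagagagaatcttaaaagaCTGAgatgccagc
Snora24 of Snhg8, chr3:123507937-123508066, minus strand: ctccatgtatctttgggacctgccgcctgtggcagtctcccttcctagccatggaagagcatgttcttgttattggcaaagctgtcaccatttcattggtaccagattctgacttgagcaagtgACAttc
Snord99 of Snhg12, chr4:132310691-132310764, plus strand: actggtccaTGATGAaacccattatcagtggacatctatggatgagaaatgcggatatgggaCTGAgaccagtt
Snord22, the only snoRNA of these hosts with enough counts to be tested, held the letters of box D but not those of box C in this search.

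The start sites of the hosts are shown because a run of pyrimidines at the first base is known for several hosts of this class. Promoter sequences from RefSeq (GRCm38.p6) matched 6 of the 7 symbols, and Gas5 had 2 entries. Each line gives 25 bases on either side of the annotated start, and capitals mark a C followed by at least 4 bases that are each C or T, beginning between 10 bases before and 15 bases after the start on the strand of the gene.
Gas5, chr1:161035141-161035190, plus strand: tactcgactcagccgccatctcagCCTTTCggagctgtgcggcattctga
Snhg8, chr3:123508312-123508361, minus strand: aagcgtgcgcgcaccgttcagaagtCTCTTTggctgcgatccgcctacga
Snhg12, chr4:132308653-132308702, plus strand: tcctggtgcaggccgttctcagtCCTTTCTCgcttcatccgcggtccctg
Snhg3, chr4:132353662-132353711, minus strand: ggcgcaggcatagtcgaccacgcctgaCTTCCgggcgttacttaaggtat
Snhg5, chr9:88522873-88522922, minus strand: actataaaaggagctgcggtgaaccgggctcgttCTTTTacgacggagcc
Snhg1, chr19:8723462-8723511, plus strand: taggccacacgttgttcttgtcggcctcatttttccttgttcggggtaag
Such a run was found in the windows of 5 hosts, with lengths of 5 to 8 bases, and not in the other Gas5 entry. The Snhg1 window held no match to this rule, but 9 bases that are each C or T, led by T, beginning 4 bases after the start. A run of C or T at least that long began in the searched stretch of 6.9% of promoter entries. Among all 32851 RefSeq promoter entries the search for a C with at least 4 such bases found one in 30.7%. In Snhg8 the run began at the annotated start itself, in Gas5 1 base and in Snhg12 2 bases before it, and in Snhg5 9 bases after it.

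The genes lie on 5 chromosomes. Gas5 spans chromosome 1 from 161034422 to 161038539, Snhg6 chromosome 1 from 9941959 to 9944118, Snhg8 chromosome 3 from 123507552 to 123508404, Snhg12 chromosome 4 from 132308623 to 132311024, Snhg3 chromosome 4 from 132348014 to 132353686, Snhg5 chromosome 9 from 88521050 to 88522929, and Snhg1 chromosome 19 from 8723475 to 8726443. Some of their reads could belong to a neighbour. Snhg3 shares 135 bases of exon (13.7%) with Rcc1, a nucleotide exchange factor for Ran, on the same strand, and 705 bases (71.5%) with Gm17300 on the opposite strand. Snhg6 shares 127 bases of exon (11.1%) with Mcmdc2, a gene of meiotic recombination, on the opposite strand. Gas5 lies within reach of Zbtb37 on the opposite strand but shares no exon with it. The strand setting of the counting was not given in the sources used here, and the labels name a stranded library kit where the paper names one that does not keep strand, so reads of Snhg3 and Snhg6 cannot be told apart from their antisense partners. Of the 75-base stretches of the longest transcript, 16.8% in Snhg3 also occur in Snora73a, 7.98% in Snhg8 in Snora24 and 4.30% in Snhg12 in Snora16a, against 2.07% in Snhg1, 1.01% in Gas5 and 0 in Snhg5 and Snhg6.

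The Ddx41 and Trp53 counts followed the labels. Values are given as CPM, counts per 1000000 counts of a library size scaled by the TMM method. Ddx41 mRNA was at 12.5 to 16.5 CPM in the 4 Ddx41+/- mice and at 21.9 to 26.6 CPM in the 6 Ddx41+/+ mice, with no overlap. Its log2 fold change over both Trp53 genotypes was −0.70 (standard error 0.108, edgeR adjusted p = 0.0173). Trp53 mRNA was at 40.3 to 46.2 CPM in the 5 Trp53+/- mice and at 57.4 to 68.1 CPM in the 5 Trp53+/+ mice, again without overlap, and the log2 fold change was −0.48 (standard error 0.0690, edgeR adjusted p = 0.00355).

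The erythroid label was matched by Slc4a1, the band 3 anion exchanger of red cells (25470 to 30512 CPM over the 10 mice), Alas2, the first enzyme of heme synthesis (7007 to 8440 CPM), and Tfrc, which encodes CD71 (2692 to 3458 CPM). The adult globin rows were at or near 0, with at most 21 counts of Hba-a1 and no count of Hbb-bt in any mouse, so the globins could not serve as markers in this table. Markers of other cell types were present at lower levels, and some B cell and early progenitor markers differed between genotypes. The 9 B cell markers in the table, with Cd79a the most abundant, summed to 66.9 ± 24.5 CPM (SD, n = 3) in Ddx41+/+ with Trp53+/+, 134 ± 43.7 CPM (SD, n = 2) in Ddx41+/- with Trp53+/+, 160 ± 23.5 CPM (SD, n = 3) in Ddx41+/+ with Trp53+/- and 151 ± 11.7 CPM (SD, n = 2) in Ddx41+/- with Trp53+/-. Of these 9, 2 were called higher in Ddx41+/- with Trp53+/+ and 5 in Trp53+/- with Ddx41+/+. The 8 macrophage markers, led by Csf1r, summed to 411 ± 124, 385 ± 64.7, 264 ± 41.5 and 397 ± 57.9 CPM in the same order of genotypes, and none was called in a comparison. The 8 neutrophil markers, led by S100a9, summed to between 5981 and 6692 CPM on average in each genotype and ran from 4573 CPM (mouse 47) to 7845 CPM (mouse 12) between mice, and the 4 early progenitor markers, led by Myb, to 28.6 ± 7.63, 33.8 ± 6.001, 46.5 ± 2.40 and 42.1 ± 5.17 CPM. The 3 T cell markers in the table summed to at most 4.60 CPM in any mouse. The 4 megakaryocyte markers, led by Gp9, summed to between 35.8 and 49.8 CPM. None of these marker lists had a defining gene at 0 counts in all mice, other than the globin Hbb-bt. The part of other cells in the host gene values was not tested, and in sorted bulk cells fewer cells of a type and less RNA per cell cannot be told apart.

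All 7 host genes passed edgeR's filter on low counts, which kept 11846 genes. Gas5 was the most abundant, at 161 ± 19.0 CPM (SD, n = 10, lowest 137, highest 192), higher than 89.8% of the tested genes. It made up 55.5% to 59.6% of the summed CPM of the 7 hosts in each mouse. Snhg1 was at 45.6 ± 5.004 CPM, Snhg5 at 25.7 ± 4.64, Snhg8 at 25.7 ± 3.01, Snhg3 at 11.4 ± 1.81, Snhg12 at 5.54 ± 1.22 and Snhg6 at 5.12 ± 1.35 CPM (SD, n = 10 each), where the median tested gene was at 15.4 CPM. The deepest count behind a value was 3549 for Gas5 in mouse 11 and the shallowest 25 for Snhg6 in mouse 34.

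Levels between genes were compared per length. Over the union of annotated exons, Gas5 was at 42.7 ± 5.06 CPM per kb, Snhg8 at 30.1 ± 3.53, Snhg1 at 15.4 ± 1.69, Snhg5 at 14.9 ± 2.68, Snhg3 at 11.6 ± 1.84, Snhg6 at 4.47 ± 1.18 and Snhg12 at 2.31 ± 0.506 CPM per kb (SD, n = 10). The order held in 10 of 10 mice between neighbours, except that Snhg1 was above Snhg5 in 7 mice and Snhg5 above Snhg3 in 8. The union includes annotated transcripts that keep the snoRNA introns, and the order depended on the length used. Over the length of the longest transcript, Gas5 came first at 62.9 ± 7.45 CPM per kb and Snhg1 was at 16.7 ± 1.83, below Snhg5 at 21.1 ± 3.803 and Snhg3 at 19.6 ± 3.12, which was above Snhg1 in 8 of 10 mice. Over the length of the transcript matched to RefSeq, a choice made after seeing the data, Snhg1 came first at 75.4 ± 8.27 CPM per kb, above Gas5 at 62.9 ± 7.45 in 10 of 10 mice. Snhg3 at 26.1 ± 4.14 and Snhg5 at 25.6 ± 4.62 CPM per kb were then not ordered, each being higher in 5 mice. The RefSeq-matched transcript of Gas5 has 2556 bases in 4 exons, the length of its longest transcript, which shares 75-base stretches with its snoRNAs Gm22357 and Gm26224. That of Snhg1 has 605 bases in 10 exons. A length that keeps snoRNA sequence is thus set against a spliced one, and the order of Snhg1 and Gas5 rests on that. Snhg6 and Snhg12 were lowest by all 3 lengths.

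**Figure D1:**
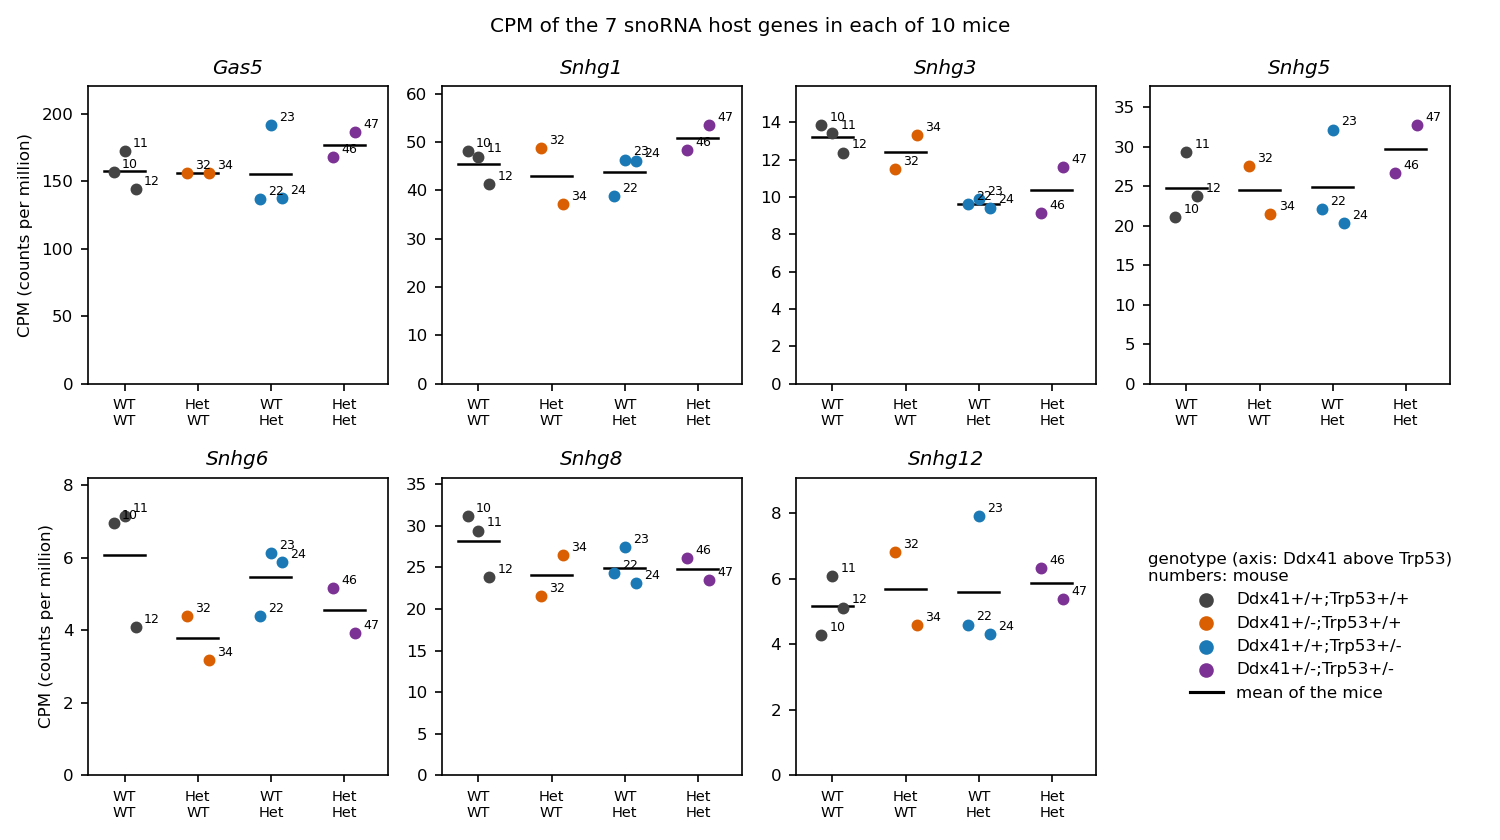
CPM of each snoRNA host gene (vertical axis, from 0) in each of 10 mice, in 1 panel per gene. Points are mice with their numbers, bars are genotype means, and the axis gives the Ddx41 genotype above the Trp53 genotype (WT, +/+; Het, +/-). The genotypes overlap for most genes, while Snhg3 in Ddx41+/+ mice lies between 9.43 and 9.89 CPM with Trp53+/- and between 12.4 and 13.9 CPM with Trp53+/+.

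Between Ddx41+/- and Ddx41+/+ cells with Trp53+/+, no host gene was called (adjusted p under 0.05 with a fold change over 1.5), where 0.540% of all tested genes (64 of 11846) were. Snhg6, the host of Snord87, had the lowest fitted value. It was at 4.38 and 3.18 CPM in the Ddx41+/- mice (32 and 34) and at 6.96, 7.14 and 4.08 CPM in the Ddx41+/+ mice (10, 11 and 12). Mice 10 and 11 were high, and mouse 12 was below mouse 32, so that the genotypes overlapped. The log2 fold change was −0.66 (standard error 0.301, 95% interval −1.30 to −0.02, unadjusted p = 0.0430, edgeR adjusted p = 0.504), and 10.2% of tested genes had a change at least as large. An unadjusted p under 0.05 was found for 1 of the 7 hosts and for 9.64% of tested genes. That p of Snhg6 did not stay under 0.05 in 7 of 15 other fits, with 0.0638 when the 2 genotypes were fitted alone and 0.216 without mouse 34.

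The other 6 hosts lay between −0.24 and 0.17 on the log2 scale. Gas5 was at 156 and 156 CPM in the Ddx41+/- mice and at 157, 172 and 144 CPM in the Ddx41+/+ mice, and the Ddx41+/- mice fell inside the Ddx41+/+ range. Its log2 fold change was −0.02 (standard error 0.125, 95% interval −0.28 to 0.25), an interval that holds folds of 0.823 to 1.19. Snhg8, the host of Snora24, was at 21.6 and 26.5 CPM in the Ddx41+/- mice and at 31.2, 29.4 and 23.8 CPM in the Ddx41+/+ mice, with overlap, and its log2 fold change was −0.24 (standard error 0.150, edgeR adjusted p = 0.671, and from −0.38 to −0.0919 with 1 mouse left out). Snhg12, with 4 snoRNA loci, had the highest value, 0.17 (standard error 0.296), on 6.81 and 4.57 CPM against 4.27, 6.07 and 5.12 CPM. Its direction rested on 1 mouse, with −0.18 without mouse 32 and 0.40 without mouse 34. The median of the 7 was −0.07, beside 0.00 for all tested genes, and 6 of 7 were below 0, as were 49.7% of tested genes. With 1 mouse left out that median lay between −0.18 (without mouse 32) and −0.0155 (without mouse 34). B cell markers were higher in the Ddx41+/- mice of this comparison, as given above, and their part was not tested.

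With Trp53+/-, no host gene was called between the Ddx41 genotypes either, where 0.0422% of tested genes (5) were. Gas5 was at 168 and 187 CPM in the Ddx41+/- mice (46 and 47) and at 137, 192 and 138 CPM in the Ddx41+/+ mice (22, 23 and 24). Mouse 23 was above both Ddx41+/- mice, and the other two Ddx41+/+ mice were below them. The log2 fold change was 0.19 (standard error 0.123, 95% interval −0.08 to 0.45, edgeR adjusted p = 1.00). With 1 mouse left out it lay between 0.10 (without mouse 24) and 0.37 (without mouse 23, edgeR adjusted p = 0.315). Snhg1, whose introns carry a series of box C/D snoRNAs, was at 48.3 and 53.6 CPM against 38.9, 46.4 and 46.2 CPM. Both Ddx41+/- mice were above all the Ddx41+/+ mice, as for 9.23% of tested genes in this direction, and the two-sided exact permutation p of 0.1 was the smallest that these group sizes allow. Its log2 fold change was 0.21 (standard error 0.127, 95% interval −0.05 to 0.48, edgeR adjusted p = 1.00). Snhg5, the host of Snord50a and Snord50b, was at 26.7 and 32.8 CPM against 22.1, 32.2 and 20.4 CPM. Its log2 fold change was 0.25 (standard error 0.192, and from 0.11 to 0.49 with 1 mouse left out). Mouse 23 lay between the Ddx41+/- mice, and the other two Ddx41+/+ mice were below them. Snhg6 was at 5.17 and 3.93 CPM against 4.40, 6.12 and 5.88 CPM, with overlap. Its log2 fold change was −0.28 (standard error 0.288, and from −0.49 to −0.0804 with 1 mouse left out). The median of the 7 was 0.11, beside −0.01 for all tested genes, and no host had an unadjusted p under 0.05, against 3.75% of tested genes. With 1 mouse left out that median lay between 0.0882 (without mouse 24) and 0.264 (without mouse 46). All 8 macrophage markers had values above 0 in this comparison, with a median of 0.55 and no call, and their part in the host values was not tested.

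The difference between these Ddx41 effects was tested as an interaction, with positive values where the change was more upward with Trp53+/-. None of the 7 passed, where 0.0675% of tested genes (8) did. Fitted values were 0.20 for Gas5, 0.29 for Snhg1, 0.21 for Snhg3, 0.26 for Snhg5, 0.38 for Snhg6, 0.23 for Snhg8 and −0.12 for Snhg12, with standard errors from 0.176 for Gas5 to 0.415 for Snhg12. Every 95% interval included 0. The lowest unadjusted p in edgeR's test was that of Snhg1, 0.136 (adjusted p = 1.00). The median was 0.23 beside −0.01 for all tested genes, and lay between 0.14 (without mouse 47) and 0.33 (without mouse 23) with 1 mouse left out. In the same test none of 9 B cell markers (median −1.17) and none of 8 neutrophil markers (median −0.20) had a value above 0, and all 8 macrophage markers did (median 0.60), with no call. Their part in the host values was not tested. These values use the same mice as the comparisons above and add no mice to them.

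Over both Trp53 genotypes, Snhg6 was at 3.18 to 5.17 CPM in the 4 Ddx41+/- mice (median 4.15) and at 4.08 to 7.14 CPM in the 6 Ddx41+/+ mice (median 5.999). The Ddx41+/- mice made up 3 of the 4 lowest values, the other being mouse 12, and the genotypes overlapped. The log2 fold change was −0.46 (standard error 0.206, 95% interval −0.90 to −0.02, edgeR adjusted p = 0.533), and the two-sided exact permutation test over the 210 arrangements of the mice gave p = 0.0571. The permutation test took no account of the Trp53 genotype, whereas the model behind the fold change did. With 1 mouse left out the log2 fold change of Snhg6 lay between −0.59 and −0.35. The unadjusted p of Snhg6 did not stay under 0.05 in 7 of 14 other fits. Its antisense neighbour Mcmdc2 had a value of the opposite sign, at 5.21 to 10.4 CPM in the Ddx41+/- mice and 2.70 to 7.602 CPM in the Ddx41+/+ mice, and its log2 fold change was 0.65 (standard error 0.238, edgeR adjusted p = 0.438). The remaining hosts lay between −0.12 (Snhg8) and 0.13 (Snhg5). No host was called, where 0.110% of tested genes (13) were. All 8 macrophage markers (median 0.24) and 8 of 9 B cell markers (median 0.36) had values above 0 in this comparison. Of 8 erythroid markers, 1 did (median −0.07). None of these markers was called, and their part in the host values was not tested.

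**Figure D2:**
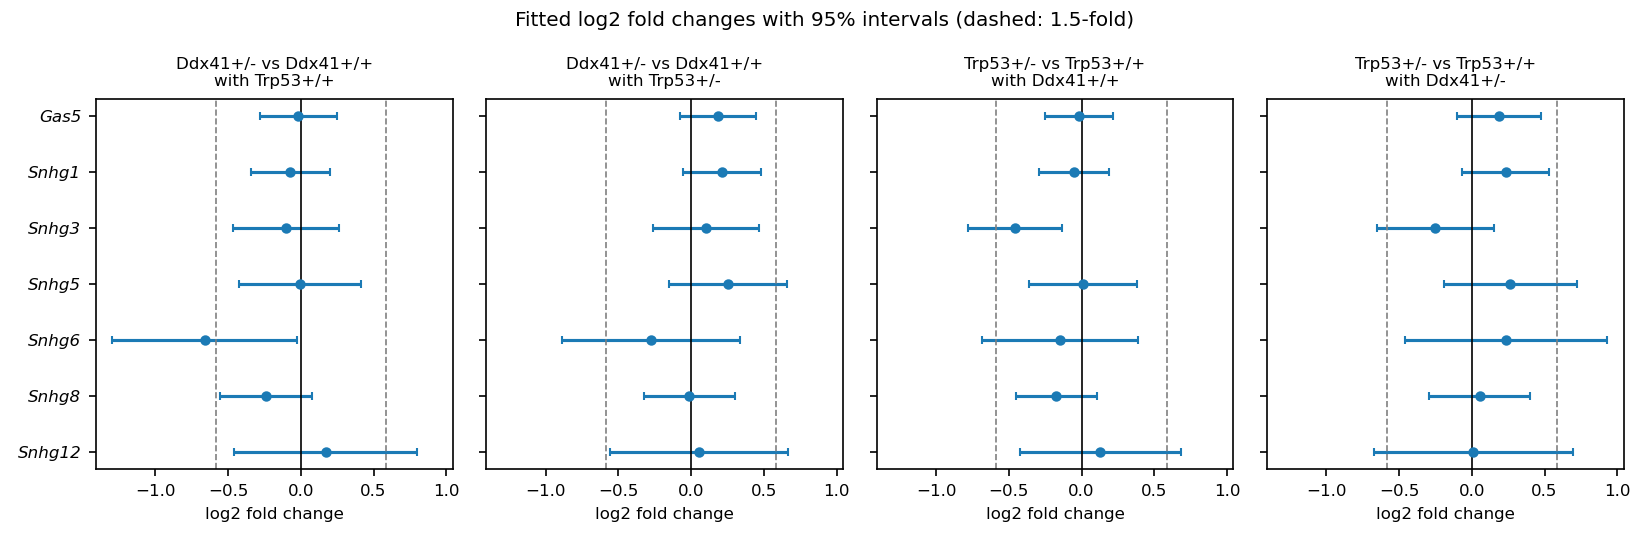
Fitted log2 fold change of each host gene (points) with its 95% interval (bars) in the 4 comparisons within a genotype of the other gene; dashed lines mark a 1.5-fold change. The intervals of Snhg6 with Trp53+/+ (−1.30 to −0.02) and of Snhg3 in the Trp53 comparison with Ddx41+/+ (−0.78 to −0.13) lie below 0 before adjustment over all genes, the Snhg6 interval only narrowly, and the others include 0.

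Between the Trp53 genotypes, Snhg3, the host of Snora73a and Snora73b, had the value farthest from 0 of the 7 hosts with Ddx41+/+ and over both Ddx41 genotypes, and Snhg5 had it with Ddx41+/-. In Ddx41+/+ mice it was at 9.60, 9.89 and 9.43 CPM with Trp53+/- (22, 23 and 24) and at 13.9, 13.4 and 12.4 CPM with Trp53+/+ (10, 11 and 12). All the Trp53+/- mice were below all the Trp53+/+ mice, as for 6.53% of tested genes in this direction. The log2 fold change was −0.46 (standard error 0.153, 95% interval −0.78 to −0.13, unadjusted p = 0.00872, edgeR adjusted p = 0.254), and the exact permutation p of 0.1 was the smallest possible. In Ddx41+/- mice it was at 9.12 and 11.6 CPM with Trp53+/- and at 11.5 and 13.3 CPM with Trp53+/+, where mouse 47 lay just above mouse 32, and the log2 fold change was −0.25 (standard error 0.189, edgeR adjusted p = 0.958, and from −0.43 to −0.0902 with 1 mouse left out). Over both Ddx41 genotypes it was at 9.93 ± 0.978 CPM (SD, n = 5) with Trp53+/- and at 12.9 ± 0.952 CPM (SD, n = 5) with Trp53+/+. That gave a log2 fold change of −0.38 (standard error 0.118, 95% interval −0.62 to −0.13, edgeR adjusted p = 0.214), and the two-sided exact permutation test over 252 arrangements gave p = 0.0159. This permutation test took no account of the Ddx41 genotype, whereas the model behind the fold change did. The change did not pass the adjustment over all tested genes. An unadjusted p under 0.05 was found for 11.2% of tested genes in this comparison, and 14.0% of tested genes had a change at least as large.

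Rcc1, which overlaps Snhg3 on the same strand, was at 104 to 133 CPM over the 10 mice and had a log2 fold change of 0.03 (standard error 0.0658) in the same comparison. Gm17300, on the opposite strand, was not analysed here. The B cell and early progenitor markers differed between the same Trp53 genotypes, with 5 of 9 and 1 of 4 called higher in Trp53+/- with Ddx41+/+, and all 8 macrophage markers had values below 0, with no call and medians of −0.61 with Ddx41+/+ and −0.36 over both. The part of these cells in the Snhg3 values was not tested.

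No host was called in a Trp53 comparison, where 0.912% (108 genes, with Ddx41+/+), 0.169% (20, with Ddx41+/-) and 0.287% (34, over both) of tested genes were. Apart from Snhg3, the hosts lay between −0.17 (Snhg8) and 0.13 (Snhg12) with Ddx41+/+ and between 0.01 (Snhg12) and 0.27 (Snhg5) with Ddx41+/-. Gas5 was at 168 and 187 CPM with Trp53+/- and at 156 and 156 CPM with Trp53+/+ in the Ddx41+/- mice. Both Trp53+/- mice were above both Trp53+/+ mice, as for 18.8% of tested genes in this direction with 2 mice against 2, where the exact permutation p cannot go below 0.333. In the Ddx41+/+ mice the Gas5 genotypes overlapped, and the log2 fold change was −0.02 (standard error 0.111). The median of the 7 was −0.05 with Ddx41+/+ and 0.18 with Ddx41+/-, beside 0.00 for all tested genes in both. With 1 mouse left out the median lay between −0.226 and 0.0229 with Ddx41+/+ and between 0.0231 and 0.366 with Ddx41+/-.

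Mice of 1 genotype differed in the levels of these hosts. Each value was expressed as its log2 CPM minus the mean of the gene over the 10 mice. In mouse 11 (Ddx41+/+ with Trp53+/+) all 7 hosts were above their mean, by 0.21 on average, and in mouse 23 (Ddx41+/+ with Trp53+/-) 6 of 7 were, by 0.20 on average, Snhg3 being the exception. In mouse 22, of the same genotype as mouse 23, none was, with an average of −0.19, and in mouse 34 (Ddx41+/- with Trp53+/+), the shallowest library, 2 of 7 were, with an average of −0.16. High and low mice were thus found side by side in the Ddx41+/+ groups. The summed neutrophil markers were lowest in mouse 11 (4903 CPM, against 5196 and 7845 in mice 10 and 12) and in mouse 23 (5472 CPM, against 5585 and 7675 in mice 22 and 24) within those groups. Erythroid sums were also lowest in mouse 11 (41716 CPM, against 43725 and 46314) and in mouse 23 (43536 CPM, against 46647 and 46102). So were B cell sums (38.7 CPM against 79.9 and 82.2, and 140 CPM against 155 and 186). Macrophage and early progenitor sums were lowest in mouse 11 but not in mouse 23, and T cell and megakaryocyte sums in neither. The part of these cells was not tested. The SD of Gas5 over the mice was 0.169 on the log2 scale, larger than in 92.0% of the 809 genes of like CPM (within 0.5 log2), whose median SD was 0.0973. For Snhg5 the SD was 0.256, larger than in 87.0% of 1595 genes of like CPM, and for Snhg1 0.162, larger than in 73.6% of 1452. Snhg6 had the largest SD of the hosts, 0.376, larger than in 72.6% of 1325 genes of like CPM. Snhg3, Snhg8 and Snhg12 were near the middle of such genes, at 54.3%, 54.3% and 49.6%.

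**Figure D3:**
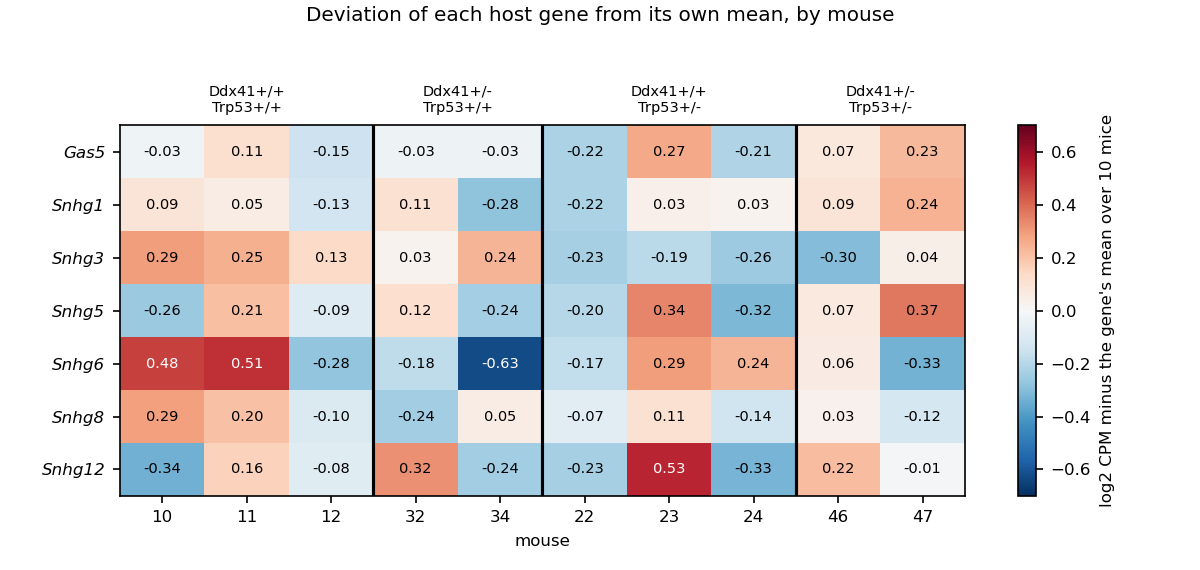
Log2 CPM of each host gene (rows) minus its mean over the 10 mice, for each mouse (columns, grouped by genotype); red is above and blue below the mean. Mouse 11 is above the mean in all 7 rows and mouse 22 below it in all 7, and Snhg3 is below its mean in 4 of the 5 Trp53+/- mice.

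Gas5 and Snhg5 had a Pearson's r of 0.87 over the 10 mice (permutation p = 0.00147, adjusted over 21 pairs p = 0.0309) and a Spearman's rho of 0.72 (permutation p = 0.0234, adjusted p = 0.246). Without the 2 mice farthest from the Gas5 median r was 0.71, and after the genotype means were subtracted it was 0.84. Snhg5 and Snhg12 had an r of 0.83 (permutation p = 0.00443, adjusted p = 0.0465) and a rho of 0.83 (permutation p = 0.00474, adjusted p = 0.0995), with 0.95 without the 2 mice farthest from the Snhg5 median and 0.86 after genotype means. These 2 of the 21 pairs had an adjusted p under 0.05 for r, and none did for rho. Among all pairs of tested genes, 0.133% had an r at least as high as that of Gas5 and Snhg5 and 0.332% one at least as high as that of Snhg5 and Snhg12. Gas5 and Snhg12 followed with an r of 0.69 (adjusted permutation p = 0.212). Snhg3 had an r between −0.24 and 0.10 to the other hosts except Snhg8 (0.43), and with Gas5 the value of 0.10 became 0.41 after genotype means. Snhg8 was likewise near 0 with Snhg1 (−0.0075), Snhg5 (−0.03) and Snhg12 (−0.04), but had an r of 0.59 with Snhg6 (adjusted permutation p = 0.292) and 0.34 with Gas5. All pairs come from the same libraries and share their depth and scaling.

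**Figure D4:**
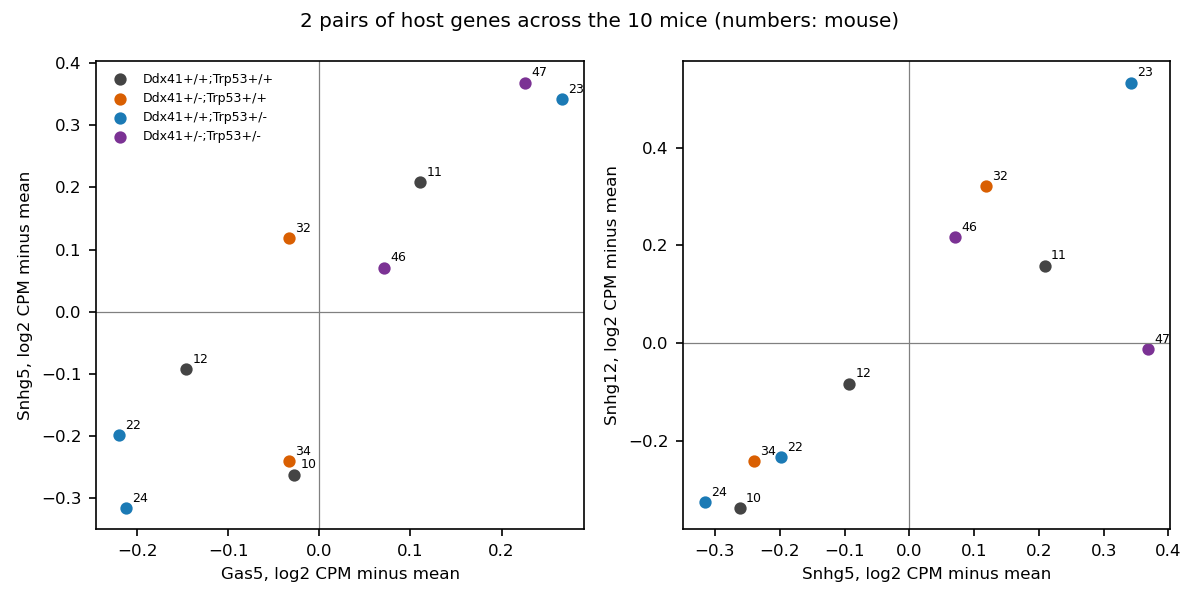
Log2 CPM minus the mean over mice for Gas5 against Snhg5 (left) and Snhg5 against Snhg12 (right), with 1 point per mouse, colored by genotype and numbered. Mice 11, 23 and 47 are high and mice 22 and 24 low for both genes on the left, with mice of 1 genotype at both ends.

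The tested genes outside the hosts whose log2 CPM most resembled the mean of the hosts over the 10 mice were Nkiras1 (Pearson's r 0.93), an inhibitor of NF-kB signalling, Abca7, a lipid transporter (0.93), Fam227a (0.91), Zc3h7a (0.90), a zinc finger protein, and Prpf4b, a kinase of the spliceosome (0.89). They were the highest of all tested genes by this measure and are given as a description. Without mice 11 and 23, r was 0.92, 0.96, 0.85, 0.86 and 0.79 in the same order. Nkiras1 and Fam227a were low, at 1.74 and 1.44 CPM on average, and Abca7 was at 383 CPM.

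The snoRNAs themselves were hardly represented in the table. It held 119 snoRNA rows, of which 19 had no count in any mouse and 23 passed the filter on low counts. Of the 8 rows that lie in these hosts, Snord22 of Snhg1 was the only one tested. Its counts were 39, 100 and 43 in Ddx41+/+ with Trp53+/+, 75 and 21 in Ddx41+/- with Trp53+/+, 35, 100 and 68 in Ddx41+/+ with Trp53+/- and 69 and 79 in Ddx41+/- with Trp53+/-. Mice 11 and 23 were highest, at 4.86 and 6.18 CPM, and mouse 10 lowest, at 2.06 CPM. The log2 fold change between Ddx41 genotypes was 0.17 (standard error 0.377) with Trp53+/+ and −0.12 (standard error 0.360) with Trp53+/-, and Snord22 was not called in a comparison. Snora61, Snord99, Snora44 and Snora16a of Snhg12 had 41, 33, 24 and 16 counts over all 10 mice, Snord47 of Gas5 had 30, Snord87 of Snhg6 had 8 and Snora24 of Snhg8 had 0. The libraries were made from polyadenylated RNA, and a count on a snoRNA row may come from a host transcript that keeps the intron, so these rows do not measure mature snoRNAs.

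Other long RNA hosts were compared in the same way. Of 17 symbols listed, 13 were in the table and 7 were tested, and none was called in any of the 7 comparisons. Other names of the same genes were not searched for. 1500012F01Rik, at 22.7 ± 2.40 CPM (SD, n = 10), was the only one above 5 CPM. Snhg10 had the lowest log2 fold change between Ddx41 genotypes with Trp53+/+, −0.56 (standard error 0.332). It was at 2.36 ± 0.248 CPM (SD, n = 2) in those Ddx41+/- mice and 3.46 ± 0.775 CPM (SD, n = 3) in the Ddx41+/+ mice, and its log2 fold change was 0.13 with Trp53+/-. Dancr, Snhg4 and Snhg7 were at 0.668 to 2.14 CPM and had values of 0.46 and 0.15 (Dancr), 0.20 (Snhg4, Trp53+/+) and 0.13 (Snhg7, Trp53+/-), each smaller than its standard error. The medians of the 7 tested genes were 0.00 and 0.11.

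Of the 34 protein-coding genes listed as snoRNA hosts, all were tested and none was called. In each of the Ddx41 comparisons 30 of the 34 had a log2 fold change below 0, beside 49.7% of tested genes with Trp53+/+ and 51.2% with Trp53+/-, with medians of −0.10 and −0.07. Most of them encode ribosomal proteins that share regulation, so the genes are not independent. Among those named by size, Hspa8, a chaperone, was at 774 ± 76.6 CPM (SD, n = 2) in Ddx41+/- and 651 ± 73.3 CPM (SD, n = 3) in Ddx41+/+ with Trp53+/+ (log2 fold change 0.25, standard error 0.0909, edgeR adjusted p = 0.350). Hspa9, the mitochondrial chaperone, had −0.23 (standard error 0.106) with Trp53+/-, and Rpl30 had 0.52 and 0.63 at 0.549 CPM on average, below its standard errors.

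Among the proteins that bind snoRNAs, all 8 core genes in the table were tested and none was called. Nop56 of the box C/D particle, itself a snoRNA host, was at 62.0 ± 3.87 CPM (SD, n = 2) in Ddx41+/- and 74.2 ± 8.38 CPM (SD, n = 3) in Ddx41+/+ with Trp53+/+, and its log2 fold change was −0.26 (standard error 0.122, edgeR adjusted p = 0.525). Nop58, its partner, had −0.15, and Gar1 of the box H/ACA particle −0.28 with Trp53+/+ and −0.33 with Trp53+/-. Dkc1, the pseudouridine synthase, had −0.18 and Nhp2l1 −0.14 with Trp53+/-. All 8 were below 0 over both Trp53 genotypes, as were 49.9% of tested genes, with a median of −0.08.

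None of the 13 genes of snoRNP assembly and intron processing was called. Znhit6, an assembly factor of box C/D particles, had a log2 fold change of −0.66 (standard error 0.356) between Ddx41 genotypes with Trp53+/+, Aqr, an intron-binding helicase, −0.25 (standard error 0.112) and Naf1, an assembly factor of box H/ACA particles, −0.21 (standard error 0.503). With Trp53+/- the values named by size were 0.34 for Shq1, −0.32 for Pih1d1 and −0.21 for Ruvbl1. The 10 factors of nonsense-mediated decay, which removes the spliced RNA of several hosts, also held no call. Upf1, its central helicase, was at 258 ± 14.1 CPM (SD, n = 2) in Ddx41+/- and 214 ± 3.05 CPM (SD, n = 3) in Ddx41+/+ with Trp53+/+ (log2 fold change 0.27, standard error 0.0886, edgeR adjusted p = 0.264), and had 0.18 (standard error 0.0883) with Trp53+/-. Upf2 had −0.19 and the kinase Smg1 0.16 with Trp53+/+, and Smg8 had 0.19 and Smg9 −0.12 with Trp53+/-. Among the 23 tested snoRNA rows, of which 22 lie outside the 7 hosts, none was called. The rows named by size, Snord2 (−1.90), Snord12 (1.75) and Snord19 (1.66) with Trp53+/+ and Snord58b (1.74), Snord19 (1.28) and Snora52 (1.03) with Trp53+/-, were below 1 CPM on average, and their standard errors ran from 0.761 to 1.13.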

How the data were processed

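Libraries of R2 cells from 10 mice were analysed, 1 per mouse. The file deposited by the authors gives unnormalized read counts by gene symbol. The labels name a stranded TruSeq mRNA kit and the paper a poly(A) TruSeq RNA kit that does not keep strand, and which was used is not settled here. The submitters' processing notes name FastQC 0.11.7, HISAT2 2.0.5, featureCounts 1.5.2 and mm10. The annotation and strand setting of the counting are not given in the sources used here. Mice 35 and 45, named as removed, were not used here.

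Counts were analysed with edgeR 4.0.16 in R 4.3.3. The low-count filter by genotype kept 11846 of 24421 genes. After TMM scaling, quasi-likelihood models were fitted to all mice, with a mean for each genotype, and with additive terms for effects over both genotypes of the other gene. P-values were two-sided and adjusted by the Benjamini-Hochberg method across the tested genes, and a call needed an adjusted p under 0.05 and a fold change over 1.5. Log2 CPM used a prior count of 2. PCR copies were not told apart by molecular identifiers, so counts are not independent molecules. P-values of the main models set a difference against the spread between mice, estimated from all mice together. Permutation p-values compare a value with those of rearranged mice. The correlations used 100000 permutations. Alternatives were DESeq2 1.42.0, its size factors, other filters, no fold limit, only the 2 genotypes compared, each mouse left out, and other transcript lengths. The procedure was also run on simulated counts, drawn with the spread estimated from these same data. The outcome is not given here, and the power to call the host genes is not stated.

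The host genes and all lists were chosen with earlier results of these data known. Genes named are the 7 hosts, Ddx41 and Trp53, in each list any called gene and the 3 with the largest absolute log2 fold change in each Ddx41 comparison, and the 5 genes most like the hosts' mean. Neighbours and marker genes are named by overlap and by list.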

Additional observations from a re-analysis of the deposited data

How the results depend on the processing

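No host gene was called in any of the 7 comparisons in the 39 fits with another test, size factor, filter, fold limit or set of genotypes, or in the 70 fits that left out 1 mouse. The smallest adjusted p was 0.145, for Snhg3 in the Trp53 comparison over both Ddx41 genotypes, where leaving out 1 mouse gave 0.145 to 0.436. In fits on all mice or on 2 genotypes, 270 of 273 fold changes of the hosts kept their direction. The 273 include the setting without a fold limit, which reuses the main fit and could not reverse. Requiring 10 counts in every library gave 0.00447 for Snhg5 between Ddx41 genotypes with Trp53+/+ and 0.00162 for Snhg8 with Trp53+/-, and fitting 2 genotypes alone gave −0.000279 for Snhg12 between Trp53 genotypes with Ddx41+/-; the cause was not tested. No paired analysis was possible, as genotypes share no replicate number.

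With 1 mouse left out, 448 of 490 host fold changes kept their direction and 42 were reversed. Many fits dropped a mouse of a genotype not compared and could hardly reverse. Where a genotype kept 1 mouse, it was assumed to vary like the others. In the Ddx41 comparison with Trp53+/+ the log2 fold change ranged from −0.0763 to 0.0565 for Gas5, from −0.30 to 0.10 for Snhg1, from −0.20 to 0.00601 for Snhg3, from −0.21 to 0.15 for Snhg5 and from −0.18 to 0.40 for Snhg12, and kept its direction for Snhg6 (from −0.95 to −0.48). With Trp53+/- it ran from −0.0679 to 0.27 for Snhg3, from −0.0872 to 0.0731 for Snhg8 and from −0.12 to 0.40 for Snhg12. There Snhg1 (from 0.14 to 0.29), Snhg5 (from 0.11 to 0.49) and Snhg6 (from −0.49 to −0.0804) kept their direction. In the interaction it ranged from −0.34 to 0.24 for Snhg12, and Gas5 (from 0.12 to 0.38), Snhg1 (from 0.12 to 0.52), Snhg3 (from 0.0330 to 0.37), Snhg5 (from 0.11 to 0.49), Snhg6 (from 0.17 to 0.67) and Snhg8 (from 0.0853 to 0.38) kept their direction. In the Ddx41 comparison over both Trp53 genotypes the log2 fold change ran from −0.0881 to 0.0718 for Snhg3 and from −0.0198 to 0.27 for Snhg12, with Gas5 (from 0.0365 to 0.16), Snhg1 (from 0.0165 to 0.17), Snhg5 (from 0.0406 to 0.22) and Snhg8 (from −0.18 to −0.0376) on 1 side of 0. In the Trp53 comparison with Ddx41+/+ the log2 fold change ranged from −0.20 to 0.0638 for Gas5, from −0.12 to 0.0229 for Snhg1, from −0.23 to 0.15 for Snhg5 and from −0.22 to 0.30 for Snhg12, with Snhg6 (from −0.35 to −0.0144) and Snhg8 (from −0.28 to −0.0940) on 1 side. With Ddx41+/- it ran from −0.0893 to 0.20 for Snhg8 and from −0.22 to 0.37 for Snhg12, with Gas5 (from 0.11 to 0.26), Snhg1 (from 0.0643 to 0.46), Snhg5 (from 0.11 to 0.48) and Snhg6 (from 0.0231 to 0.53) on 1 side. Over both Ddx41 genotypes it ranged from −0.0242 to 0.12 for Gas5, from −0.0189 to 0.12 for Snhg1, from −0.11 to 0.0944 for Snhg6 and from −0.11 to 0.19 for Snhg12, with Snhg5 (from 0.00145 to 0.21) and Snhg8 (from −0.15 to −0.0283) on 1 side. The host median between Trp53 genotypes with Ddx41+/+ was −0.05 in all mice and lay between −0.226 (without mouse 23) and 0.0229 (without mouse 22). With Ddx41+/- it was 0.18 and lay between 0.0231 (without mouse 46) and 0.366 (without mouse 32).

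Counts of all called genes were less stable. With DESeq2 they were 131 instead of 64 (Ddx41 with Trp53+/+), 29 instead of 8 (interaction), 36 instead of 20 (Trp53 with Ddx41+/-), 37 instead of 13 (Ddx41 over both) and 90 instead of 34 (Trp53 over both). Without the low-count filter they were 243, 39, 100, 250, 67, 94 and 181 instead of 64 and 5 (Ddx41 with Trp53+/+ and +/-), 8 (interaction), 108 and 20 (Trp53 with Ddx41+/+ and +/-), 13 and 34 (over both). With 10 counts in every library they were 2 instead of 5 (Ddx41 with Trp53+/-) and 8 instead of 13 (Ddx41 over both), in the 2 genotypes alone 66 instead of 108 and 37 instead of 20 (Trp53 comparisons), and without a fold limit 52 instead of 34. Leaving out 1 mouse gave 13 to 103, 1 to 10, 8 to 12, 35 to 115, 13 to 24, 2 to 42 and 20 to 79 in the order used for the filter.

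Depth limited Snhg6, Snhg12 and the snoRNA rows most: the smallest Snhg6 count was 25 and mouse 34, 1 of 2 in its genotype, had the fewest counts. The order of levels per length depended on the transcript chosen: 11 of 14 values with another length moved by more than 1 SD over the mice. With 2 or 3 mice a genotype, the 95% intervals of the hosts in the comparisons within a genotype held folds from 0.407 to 1.91.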
